A study of Mus musculus with 3 samples.

Results

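The delta cells of pancreatic islets were compared between mice labelled as beta-cell knockouts of IRE1α and a floxed control mouse, through the 231 genes that the authors' deposited table gives for delta cells, of 8237 distinct genes in their alpha, beta and delta tables together. Every gene of that table was taken. The authors had listed these genes as different on the same cells, so the differences below are descriptions of a chosen set and not an independent check of any gene. The knockout group held 2 mice labelled IRE1αβ-/- and the control was 1 mouse labelled IRE1α fl/fl. All were NOD/ShiLtJ mice, a strain that develops autoimmune diabetes spontaneously, and all were 5 weeks old. The treatment protocol, given alike for all samples, injected tamoxifen at 10 mg/ml to switch on Cre recombinase. The sources used here do not give which promoter drove Cre or whether the control carried Cre. Islets were cultured overnight before dissociation, and the cells were profiled with droplets and unique molecular identifiers (UMIs), each of which stands for 1 captured transcript.

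Delta cells are a minor endocrine cell type of the islet. They secrete somatostatin, which restrains both insulin release from beta cells and glucagon release from alpha cells, and in the mouse they are known for retinol-binding protein Rbp4. IRE1α is a sensor of unfolded protein in the endoplasmic reticulum (ER), whose RNase activates the transcription factor Xbp1, a driver of ER folding and translocation genes. The deletion was aimed at beta cells, so that the delta cells described here were neighbours of the targeted cells. Ern1, the gene of IRE1α, was not among the delta-cell genes and was not analysed there. Its level in beta cells was 0.509 UMIs per cell in the control and 0.742 in the pooled cells of both knockout mice. The sources used here do not give which exons were removed, so this value does not check the deletion.

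The values were mean UMIs per cell over 101 control delta cells, 138 cells of the first knockout column and 78 of the second, 317 cells in all. The listed genes summed to 3674 UMIs per control cell, 3070 per cell in the first knockout column and 2643 in the second. Iapp alone made up 49.7% of these in the control, and 26.0% and 26.4% in the knockout columns. Without Iapp the control had the lowest sum, with 1850 UMIs per control cell, 2273 in the first knockout column and 1945 in the second. Below, 3 values given in a row are UMIs per cell in the control, the first and the second knockout column. A ratio is the unweighted mean of the knockout columns over the control, and intervals in brackets are exact 95% intervals (Clopper-Pearson) of 1 knockout mouse over the control, which cover counting error only.

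Most listed genes were higher in the knockout delta cells. By a fold of at least 1.5, 95 genes were higher (41.1% of the 231) and 37 were lower (16.0%), and 99 lay between. Both knockout mice were above the control for 165 genes (71.4%) and both below for 41 genes (17.7%), which left 25 with the mice on opposite sides or level with the control. The median log2 ratio was 0.42, a ratio of 1.34. Ratios ran from 0.0305 for Gchfr to 16.6 for Lrg1. This split rests on the scale. The share of genes above the control was 81.4% per cell, 70.6% after scaling to the listed UMIs without hormone genes, and 51.1% after centring on the median gene.

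Only limma gives a test here, and it has 1 residual degree of freedom because there was 1 control mouse. On log2 values with a pseudocount of 0.346 UMIs per cell, at a Benjamini-Hochberg adjusted p under 0.05 over all 231 genes, it called 29 genes higher (12.6%) and 24 lower (10.4%). For all 53 of these the knockout mice were either both above or both below the control. The verbs "rose" and "fell" are used below only for them. Its p-values are too small, since the authors picked these genes from the very cells tested. The spread they rest on is a trend over genes of the difference between the 2 knockout mice, with infinite prior degrees of freedom. The test therefore did not run on the 1 residual degree of freedom. A gene's own difference between these mice had no weight, so genes whose knockout mice lay far apart could pass. Nothing says how far control mice vary.

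**Figure D1:**
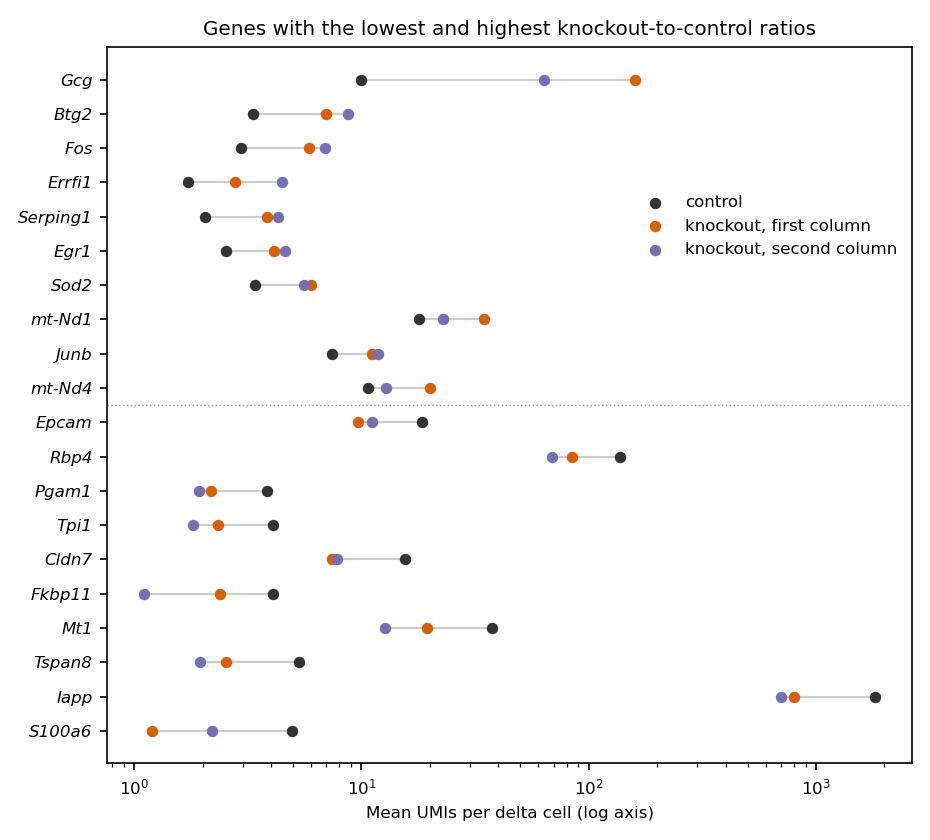
Mean UMIs per delta cell (log axis) in the control mouse and in each knockout mouse for the 10 genes with the highest and the 10 with the lowest ratio among genes whose higher group reached the median level of the table (3.60 UMIs per cell). Gcg stands apart at the upper end, at 10.0 in the control and 159 and 63.5 in the knockout columns, and for each of the 20 genes both knockout points lie on one side of the control point.

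Rbp4, the only listed delta-cell marker, and Iapp, a gene of the beta-cell list, were lower in both knockout mice. Rbp4 (mm10 chromosome 19, 38116629 to 38125281), which carries retinol in blood, fell from 137 to 84.2 and 69.1 UMIs per cell. The mice were at 0.615 [0.600 to 0.630] and 0.504 [0.489 to 0.521] of the control. In control cells it stood 46.6 times higher than in beta cells and 8.73 times higher than in alpha cells. Iapp, the precursor of amylin, read 1825, 797 and 698 UMIs per cell, a ratio of 0.410 that did not pass limma's test (adjusted p = 0.232). Both mice were far below the control. The control delta level of Iapp was close to that of control beta cells, 1781 UMIs per cell, and above the 126 of control alpha cells. Both genes were also lower in knockout alpha cells, at ratios of 0.552 for Rbp4 and 0.494 for Iapp. In beta cells Iapp had a ratio of 0.525 and Rbp4 one of 1.86.

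Of the 10 delta-cell markers only Rbp4 was listed. Somatostatin itself (Sst) was not among the delta-cell genes, so its level in these cells was not analysed here. It was listed at 36.8, 12.1 and 42.0 UMIs per cell in alpha cells, and at 36.7 and 59.1 in control and pooled knockout beta cells. The delta transcription factor Hhex and the ghrelin receptor Ghsr were not listed for delta cells either. The label could therefore be checked on Rbp4 alone. Iapp is on the beta-cell list, and Epcam and Cldn7 are on the epithelial list, so they do not check it.

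The listed genes of an epithelial list fell together. Of these, Cldn7 and Epcam are junction or adhesion genes, and S100a6 and Anxa5 are calcium- and phospholipid-binding proteins placed on the list. All 4 listed members of this list of 35 genes passed limma's test downwards, against 10.4% of the 231 genes. Their median log2 ratio was -0.93. That median was -0.55 after scaling to all listed UMIs and -1.30 after centring on the median gene. Both mice were below the control for all 4, against 17.7% of the 231 genes. Cldn7, a claudin of epithelial tight junctions (chromosome 11, 69964779 to 69967885), fell from 15.6 to 7.39 and 7.81. Epcam, an epithelial adhesion molecule (chromosome 17, 87635979 to 87651129), fell from 18.4 to 9.65 and 11.2. The mice lay close together and well under the control for both genes. S100a6, a calcium-binding protein, fell from 4.93 to 1.20 and 2.21, and Anxa5, a phospholipid-binding annexin, from 6.96 to 4.00 and 4.12. Tspan8, a tetraspanin of epithelial membranes on the duct-cell list and not on this one, fell from 5.29 to 2.53 and 1.95. It was 34.2 times higher in control delta than in control beta cells. The other listed duct-cell genes, Muc1 and Mmp7, had ratios of 1.15 and 1.92, each with the mice on opposite sides of the control. In alpha cells, where the same mice served, Epcam had 4.55, 2.86 and 3.71 UMIs per cell and Cldn7 2.69, 1.61 and 2.19. Beta cells did not show lower values: from control to pooled knockout cells, Epcam read 2.12 and 2.61, Tspan8 0.154 and 0.216, Anxa5 3.35 and 3.43, and S100a6 1.89 and 6.39. Cldn7 was not listed for beta cells.

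Markers of other islet cells moved with genotype in opposite ways. Gcg, the glucagon precursor of alpha cells (chromosome 2, 62474530 to 62483650), rose from 10.0 to 159 and 63.5 UMIs per cell. The ratios were 15.9 [14.9 to 17.0] in the first and 6.35 [5.93 to 6.80] in the second mouse, so both were far above the control and also far from each other. Ttr, transthyretin, a thyroid hormone and retinol carrier that is abundant in alpha cells, rose from 1.01 to 4.36 and 2.58. Gc, the vitamin D-binding protein, fell from 3.12 to 1.41 and 1.37 although it belongs to the same alpha-cell list. Of the 11 alpha-cell markers these 3 were listed, summing to 14.1, 165 and 67.4 UMIs per cell, and Irx1 and Irx2 were not listed. Gcg in beta cells was 43.6 in the control and 100.4 in the pooled knockout. The part of RNA from other cells in these values was not tested.

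Of 14 duct-cell markers, 3 were listed, with summed levels of 6.08, 3.48 and 2.92. They were Tspan8, the mucin Muc1 (0.723, 0.696 and 0.962) and the protease Mmp7 (0.0693, 0.254 and 0.0128), and the last of these separated the knockout mice from each other. The complement gene C1qa was the only 1 of 17 immune-cell markers listed, at 1.04, 0.833 and 0.346 UMIs per cell, lower in both knockout mice. Iapp was the only 1 of 15 beta-cell markers. No marker of acinar, PP and epsilon, endothelial, mesenchymal, Schwann or red cells was listed, nor was any gene of the lists of endocrine transcription factors, of MHC class I and interferon genes, of IRE1-dependent decay substrates, of the proteasome or of translation factors. The 16 lipid and retinol carriers gave 3 listed genes, of which Rbp4 and Gc fell and Ttr rose.

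Acute-phase genes were among the groups furthest above the control. Signals such as interleukin-6 reach these genes through the transcription factor STAT3. Of 45 genes on this list 9 were listed for delta cells; 8 were at least 1.5-fold higher with both mice above the control, 4 passed limma's test upwards (Lrg1, Serpina3n, Hamp and Junb) and none fell. The median log2 ratio was 1.98, and 0.77 with the pseudocount of 0.346 UMIs per cell, which shrinks low-level genes. Among all 231 genes, 41.1% were at least 1.5-fold higher, 71.4% had both mice above the control and 12.6% passed limma's test upwards. Lrg1, a secreted glycoprotein (chromosome 17, 56119678 to 56122001), rose from 0.149 to 2.29 and 2.63 UMIs per cell. The first mouse was 15.4-fold [9.21 to 27.9] and the second 17.7-fold [10.5 to 32.2] above the control. The mice were close to each other, and the control value rests on few UMIs. Serpina3n, a protease inhibitor (chromosome 12, 104406729 to 104414329), rose from 0.238 to 1.86 and 1.51. Hamp, the iron-regulating hormone hepcidin (chromosome 7, 30942368 to 30944032), rose from 0.446 to 3.16 and 2.56, and was not listed for alpha or beta cells.

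The remaining members of that list did not pass the test apart from Junb. Il1r1, the interleukin-1 receptor, had 0.109, 0.464 and 0.551 UMIs per cell. Pim1, a kinase gene induced by STAT signals, had 0.0891, 0.319 and 0.385, and Socs3, the feedback inhibitor of that pathway, 0.822, 1.48 and 1.81. Stat3 had 1.64, 2.88 and 2.81. In each of these 4 genes both mice were above the control. Junb, a subunit of AP-1, rose from 7.46 to 11.1 and 11.9. Lcn2, lipocalin 2, had 5.97, 5.27 and 7.71, with the mice on opposite sides.

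Several of these genes were at a lower level in the control delta cells than in other islet cells of the same mouse. Serpina3n had 5.05 UMIs per control beta cell and 2.72 per control alpha cell against 0.238 in delta cells. In knockout cells it had 4.84 in beta cells, and 4.14 and 4.76 in alpha cells. Lrg1 went from 1.96 in control to 2.50 in pooled knockout beta cells, and Stat3 from 5.45 to 5.24. The knockout delta levels of Lrg1 thus lay near the beta-cell level, while the control delta level was 0.0758 of it. Whether the change differed between the cell types was not tested.

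**Figure D2:**
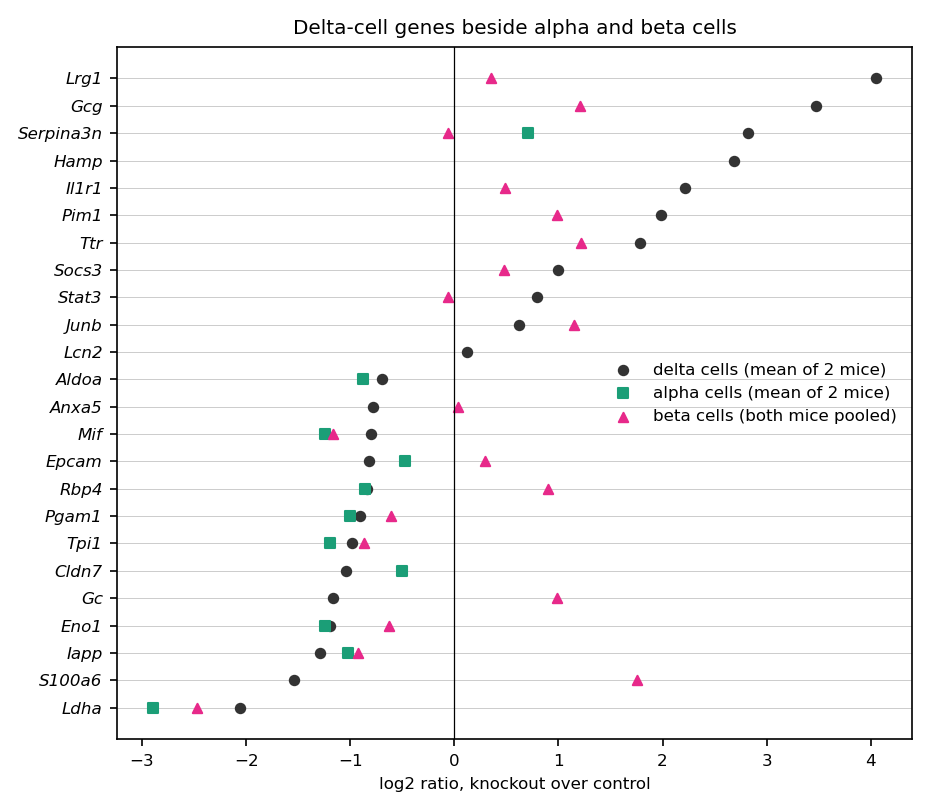
Log2 ratio of knockout over control (horizontal) for the listed acute-phase, alpha-cell, epithelial and glycolysis genes and for Rbp4 and Iapp, with a point in each cell type that lists the gene; circles are delta cells, squares alpha cells and triangles beta cells, whose value pools both knockout mice. Glycolytic genes lie below 0 in all cell types that list them, whereas S100a6 lies below 0 in delta and above 0 in beta cells.

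A few further genes with roles in inflammation or secretion are given by their values. Of 20 genes of the NF-kB response 2 were listed and both rose, against 12.6% of the 231 genes. Sod2, the mitochondrial superoxide dismutase and the only listed gene of 35 antioxidant genes, went from 3.40 to 5.99 and 5.62. The chemokine gene Ccl2 went from 0.366 to 1.70 and 0.679, with the first mouse well above the second. Serping1, the inhibitor of complement C1, rose from 2.05 to 3.83 and 4.29. The next 4 genes were chosen after their values were seen. Fgl2, a fibrinogen-like protein, rose from 0.218 to 0.681 and 0.923, and Serpina10, an inhibitor of coagulation factors, from 0.574 to 1.77 and 1.51. Fbp1, a gluconeogenic phosphatase, rose from 0.287 to 1.78 and 0.910. Sbno2 had 1.00, 1.99 and 1.87 and did not pass the test, with closely similar values in alpha cells (1.11, 2.10 and 1.95).

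Promoter windows of members are shown for the motifs that their groups are known for. The windows are 300 bases, from 250 before to 50 after a RefSeq start site on GRCm38.p6, the build also called mm10, and were found for 160 of the 231 symbols. The palindrome TTCNNNGAA, the core that STAT factors bind, was looked for on both strands. It occurred in 8.30% of all 32851 windows, in 6.22% of the 209 windows of listed genes, and in 2 of 11 windows of the acute-phase members, those of Hamp and Socs3. The Hamp window is chr7:30943980-30944279 on the minus strand and the Socs3 window chr11:117969317-117969616 on the minus strand, written 5′ to 3′ along the gene with the motif in capitals. Counted from the start site, the motif begins at base -97 in Hamp and at base -154 in Socs3.
Hamp: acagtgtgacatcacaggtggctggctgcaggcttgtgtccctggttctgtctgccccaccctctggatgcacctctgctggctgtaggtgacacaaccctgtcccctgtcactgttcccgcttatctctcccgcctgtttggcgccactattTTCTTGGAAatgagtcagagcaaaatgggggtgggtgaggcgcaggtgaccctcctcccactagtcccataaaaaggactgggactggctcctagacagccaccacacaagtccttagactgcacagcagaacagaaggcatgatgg
Socs3: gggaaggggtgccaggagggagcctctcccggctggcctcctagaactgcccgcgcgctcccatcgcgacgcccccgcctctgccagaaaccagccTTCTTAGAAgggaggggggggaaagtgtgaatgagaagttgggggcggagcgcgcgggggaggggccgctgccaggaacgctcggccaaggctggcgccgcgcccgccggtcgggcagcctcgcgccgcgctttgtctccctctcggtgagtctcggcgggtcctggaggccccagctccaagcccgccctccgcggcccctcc

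Immediate early genes, which cells switch on within minutes of a stimulus or stress, were higher in both mice without exception. All 10 listed members of 38 were above the control in both, 9 of them by at least 1.5-fold, and 5 passed limma's test (Btg2, Fos, Zfp36, Egr1 and Junb), with a median log2 ratio of 0.86. That median was 0.49 after centring on the median gene and 1.23 after scaling to all listed UMIs. Of all 231 genes, 71.4% had both mice above the control, 41.1% were at least 1.5-fold higher and 12.6% passed limma's test upwards. Btg2, an antiproliferative gene (chromosome 1, 134075170 to 134079120), rose from 3.32 to 6.98 and 8.77, and Fos, an AP-1 subunit, from 2.96 to 5.88 and 6.88. Both mice were more than 1.5-fold above the control for these genes, and the second was the higher one. Egr1, a zinc finger transcription factor, rose from 2.53 to 4.13 and 4.63. Ier2 had 4.36, 5.95 and 7.19, and Jund 6.23, 9.15 and 8.91, neither past the test. Junb and Socs3 are on the acute-phase list as well. Errfi1, a feedback inhibitor of the EGF receptor, rose from 1.72 to 2.78 and 4.46. In beta cells Fos went from 1.71 to 4.40 and Btg2 from 3.20 to 6.71.

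The full cyclic AMP response element TGACGTCA, searched on both strands, was present in 1.79% of all windows, in 4.31% of those of listed genes and in 1 of 8 windows of the immediate early members. That 1 was Btg2, chr1:134079106-134079405 on the minus strand, where the element in capitals begins at base -166 from the start site.
Btg2: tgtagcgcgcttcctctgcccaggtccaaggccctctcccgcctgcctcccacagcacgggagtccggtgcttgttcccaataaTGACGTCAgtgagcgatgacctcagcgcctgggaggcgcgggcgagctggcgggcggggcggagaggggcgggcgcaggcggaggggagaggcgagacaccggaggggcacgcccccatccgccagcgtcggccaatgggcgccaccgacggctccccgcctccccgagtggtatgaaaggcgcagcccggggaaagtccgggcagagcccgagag

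Glycolytic enzymes fell in the knockout delta cells. All 6 listed members of 24 were at least 1.5-fold lower, both mice were below the control for each, and all 6 passed limma's test; the median log2 ratio was -0.95. After scaling to all listed UMIs that median was -0.59, and after centring on the median gene -1.33. Over all 231 genes, 16.0% were at least 1.5-fold lower, 17.7% had both mice below the control and 10.4% passed limma's test downwards. Ldha, which makes lactate from pyruvate (chromosome 7, 46841475 to 46855627), fell from 2.05 to 0.601 and 0.385, a ratio of 0.241. Eno1, enolase, fell from 2.69 to 1.38 and 0.962. Tpi1 fell from 4.09 to 2.33 and 1.81 and Pgam1 from 3.85 to 2.17 and 1.92. Aldoa, aldolase, fell from 15.4 to 9.24 and 9.82. In these 5 genes both mice were well below the control. Mif, a cytokine gene placed on this list, fell from 9.33 to 6.28 and 4.42.

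The 6 genes were also lower in alpha cells, and those listed for beta cells, all but Aldoa, were lower there. Ldha had 0.528, 0.109 and 0.0339 UMIs per alpha cell, and 0.490 in control and 0.0883 in pooled knockout beta cells. Tpi1 had 4.38, 2.24 and 1.58 in alpha cells. Control delta cells held more Ldha than control beta cells (4.18 times) and control alpha cells (3.88 times). Of 24 hypoxia-inducible genes only Bnip3, a mitophagy receptor, was listed, and it fell from 1.11 to 0.551 and 0.282. Mt1, the only listed one of 3 metallothioneins, which bind zinc and copper, fell from 37.7 to 19.4 and 12.6. Mt1 in beta cells went from 244 to 93.9.

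The motif ACGTG, the core that hypoxia-inducible factors bind, was searched on both strands. It was found in 19.6% of all windows, in 46 of the 209 windows of listed genes, and in 5 of 11 windows of the glycolytic members, from 4 of the 6 genes. Of the Ldha windows, chr7:46846832-46847131 on the plus strand holds no match. The Ldha window chr7:46845554-46845853 on the plus strand holds 5 matches in capitals, some of which overlap on opposite strands. They begin at bases -145, -144, -48, -47 and -34 from the start site.
Ldha: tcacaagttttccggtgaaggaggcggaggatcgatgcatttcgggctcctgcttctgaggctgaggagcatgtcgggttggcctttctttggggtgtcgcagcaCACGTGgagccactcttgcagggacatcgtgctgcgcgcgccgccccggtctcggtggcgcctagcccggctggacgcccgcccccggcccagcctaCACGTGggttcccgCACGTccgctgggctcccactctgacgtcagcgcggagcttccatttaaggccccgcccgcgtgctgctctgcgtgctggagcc

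Genes of the ER folding and translocation machinery were lower. Of 62 targets of the IRE1-XBP1 branch 11 were listed; both mice were below the control for all 11, 9 were at least 1.5-fold lower, 7 passed limma's test downwards and none rose. The median log2 ratio was -0.69, or -0.34 after scaling to all listed UMIs and -1.08 after centring on the median gene. Across all 231 genes, 16.0% were at least 1.5-fold lower, 17.7% had both mice below the control and 10.4% passed limma's test downwards. Fkbp11, a prolyl isomerase, fell from 4.08 to 2.38 and 1.10. Dad1, a subunit of the oligosaccharyltransferase, fell from 16.4 to 11.7 and 9.58, and Ssr2, of the translocon-associated complex, from 9.41 to 6.51 and 5.08. Spcs2, of the signal peptidase, fell from 7.84 to 5.22 and 4.63. For every one of these 4 genes the second mouse was the lower one. Edem2, of ER-associated degradation, had 2.59, 1.71 and 1.22, and Srp9, of the signal recognition particle, 5.52, 5.17 and 3.44, neither past the test. Of 23 ER chaperones and folding factors 4 were listed and all fell, against 10.4% of the 231 genes. All 4 are also among the 11 IRE1-XBP1 targets and so are not a further set of genes. They included Manf, from 13.4 to 9.67 and 7.62, and Sdf2l1, from 3.89 to 3.12 and 1.56.

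Some of these ER genes were also listed for beta or alpha cells, whereas Edem2, Srp9 and Tram1 were listed for neither. Manf had 9.61 UMIs per cell in control and 6.15 in pooled knockout beta cells, and 7.11, 4.90 and 4.49 in alpha cells. Dad1 had 12.4 and 7.27 in beta cells and 10.1, 6.69 and 6.77 in alpha cells. The arrangement of CCAAT and CCACG 9 bases apart, known from ER stress elements, occurred in 0.119% of all windows, in 0 of the 209 windows of listed genes and so in 0 of the 11 windows of these members. Slc7a3, an amino acid transporter, was the only 1 of 27 genes of the PERK-ATF4-CHOP branch listed, at 0.168, 0.00725 and 0.0128 UMIs per cell.

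**Figure D3:**
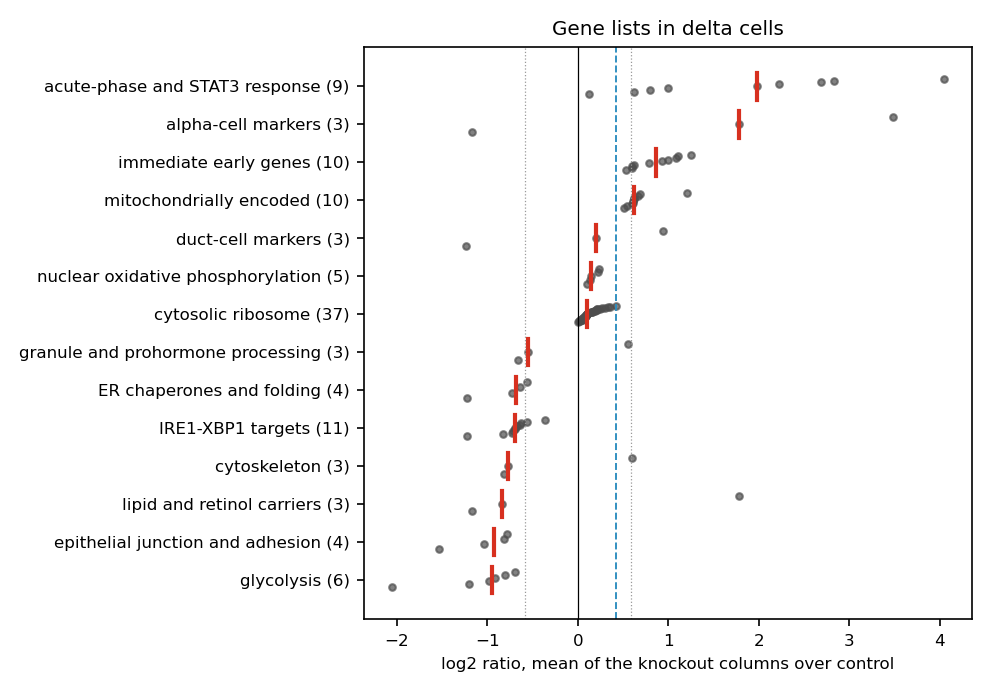
Log2 ratio of knockout over control in delta cells for every listed member (points) of the gene lists with at least 3 members, with the median of each list (red bars) and of all 231 genes (dashed line, 0.42); dotted lines mark a fold of 1.5. The acute-phase list has a median of 1.98, and the glycolysis (-0.95), epithelial (-0.93) and IRE1-XBP1 (-0.69) lists lie below 0.

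Mitochondrially encoded transcripts, which code for subunits of the respiratory chain, were higher in both mice. Of the 13 mitochondrially encoded mRNAs 10 were listed; all 10 were above the control in both mice, 8 by at least 1.5-fold, and 4 passed limma's test upwards. Their median log2 ratio was 0.61 and their sum went from 205.7 to 357.8 and 264.0 UMIs per cell. The median was 0.23 after centring on the median gene, 0.35 without the first mouse and 0.84 without the second. Over all 231 genes the median was 0.42, or 0.041 after centring, 0.34 without the first mouse and 0.42 without the second. Without the first mouse the median of the mitochondrial transcripts was thus close to that of all genes. Of the 231 genes, 71.4% had both mice above the control, 41.1% were at least 1.5-fold higher and 12.6% passed limma's test upwards. mt-Nd3 rose from 1.34 to 3.70 and 2.46, and mt-Nd1, of the same respiratory complex, from 17.9 to 34.7 and 22.8. The first mouse was the higher one for both. Gm26917, Gm42418 and AY036118, 3 loci where reads of ribosomal RNA are known to land, had 1.22, 4.19 and 4.00, then 2.67, 4.96 and 3.29, then 0.851, 1.80 and 1.35 UMIs per cell; they were chosen after their values were seen. The part of RNA quality in the results was not tested.

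The 37 cytosolic ribosomal protein genes were all within 1.5-fold of the control, with ratios from 1.00 for Rpl26 to 1.34 for Rps27 and none past limma's test. Both mice were above the control for 26 of the 37, close to the share of 71.4% over all 231 genes. Their median log2 ratio was 0.10 per cell, but -0.02 after scaling to listed UMIs without hormones and -0.28 after centring, so that no direction is given for the group. Many of these genes have near-identical pseudogenes between which reads can be split. The 5 listed nuclear genes of oxidative phosphorylation were also within 1.5-fold, with a median log2 ratio of 0.15 per cell and -0.23 after centring.

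Genes of the secretory granule, the cytoskeleton and signalling gave few members. Of 31 granule genes 3 were listed and none passed the test. Pcsk1n, the precursor of proSAAS, which inhibits a prohormone convertase, had 34.0, 48.3 and 51.6, while the granule protein gene Ptprn had 8.43, 6.62 and 4.92 and Atp6ap2, of the proton pump, 5.01, 2.95 and 3.38. Actb, beta-actin, rose from 10.2 to 15.3 and 15.6, whereas Tubb4b, a beta-tubulin, fell from 3.19 to 1.48 and 2.13. Tuba4a had 3.51, 2.01 and 2.10 and did not pass the test. Among 31 genes of cyclic AMP and G protein signalling, Rgs4 rose from 1.90 to 3.46 and 3.12, and Rgs2 had 1.03, 0.377 and 0.654. These regulators of G protein signalling thus lay on opposite sides of the control, the second without passing the test.

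Other lists held 1 or 2 members, none past the test, each with both mice above the control. The ratio was 1.23 for Hsp90aa1 of the heat shock list, 1.91 for Gadd45a of the p53 list, 1.44 for the cathepsin gene Ctsz, 1.23 for Rbm39 and 1.27 for Lsm6 of RNA splicing, and 1.22 for the imprinted antisense RNA Kcnq1ot1. Kcnq1ot1 was the only listed gene of the long noncoding list, and the ion channel list reached only it, through its name.

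Low-level genes gave the lowest ratios and, apart from Gcg (11.1), the highest ones, with the widest intervals. The other genes of this paragraph were chosen after their values were seen, except Hdac9, Batf, Wfdc18 and Ednrb. Those were named because no UMI was found for them in the control. Anxa10, an annexin 18.8 times higher in control delta than in control beta cells, fell from 0.792 to 0.109 and 0.0513. Hs3st1, a heparan sulfate sulfotransferase, had 0.396, 0.0725 and 0.0128, and the phosphatase gene Ptprg 0.594, 0.268 and 0.141. Gchfr, the regulator of GTP cyclohydrolase, had 0.119, 0.00725 and 0. In each of these 4 genes both mice were below the control. With 3 UMIs set as the floor of the whole control group, the ratio was 4.38 for the endothelin receptor gene Ednrb. It was 4.22 for the transcription factor gene Batf and 3.67 for Wfdc18. The floor covers the control side only. Knockout values were also low, at 0.145 and 0.115 UMIs per cell for Ednrb, 0.174 and 0.0769 for Batf, and 0.167 and 0.0513 for Wfdc18. These genes did not pass limma's test. Hdac9 had 0.109 UMIs per cell in the first knockout column and none in the second.

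The knockout mice were similar for most genes. With 1 UMI added to the total of each knockout column, they differed at least 2-fold from each other for 17 genes. Of these, 14 were higher in the first mouse and 3 in the second. The counting intervals of both mice lay above a ratio of 1 for 116 genes and below it for 38. The 5 genes with the widest split across the control were low in level. They were Mmp7, given above, Acaa2 (0.0891, 0.377 and 0.0256), Gm13373 (0.0693, 0.261 and 0.0256), Hyal1 (0.0495, 0.0362 and 0.218) and Fam151a (0.228, 0.0942 and 0.346). For such genes 1 mouse decides the sign of the ratio. Without the first mouse, the log2 ratios of Mmp7, Acaa2 and Gm13373 were -2.43, -1.80 and -1.43, and without the second that of Hyal1 was -0.45.

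**Figure D4:**
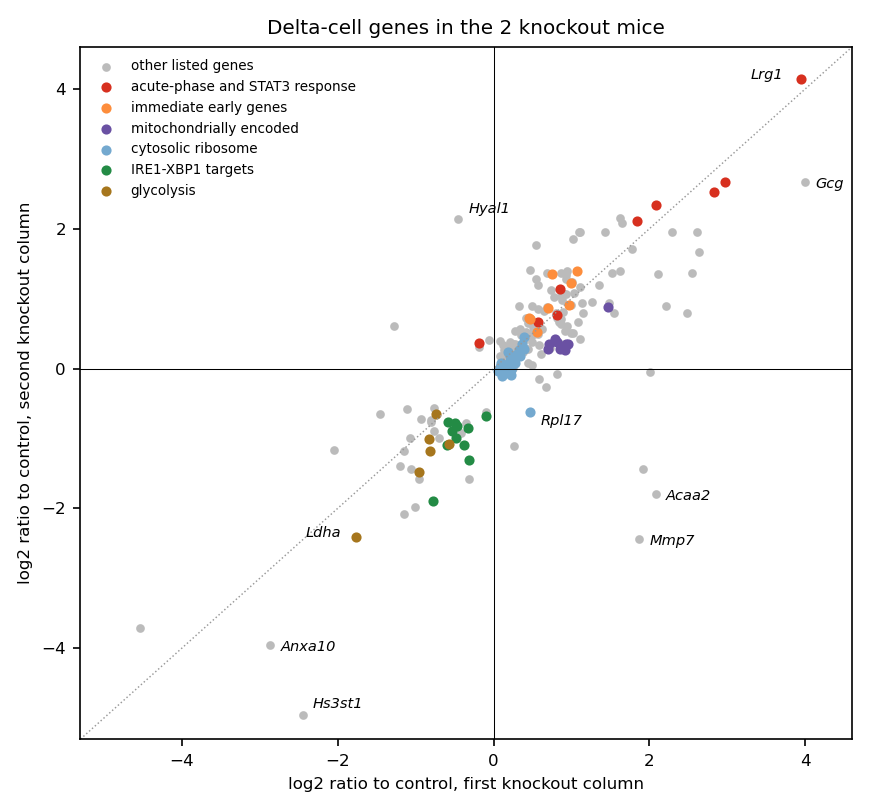
Log2 ratio to the control of each delta-cell gene in the first (horizontal) and the second knockout mouse (vertical), with the line of equality; genes with no UMI in the control are placed against a floor of 3 UMIs, and Gchfr and Hdac9, with no UMI in the second knockout column, are left out; colours mark gene lists. Most points lie at the upper right, where both mice are above the control (165 of the 231 genes).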

How the data were processed

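Islet cells of 3 mice (1 control, 2 knockout) had been profiled in droplets with UMIs. Per the submitters' processing notes, Cell Ranger 3.0.0 and the build mm10 were used. The sources used here give no filter on cells, no treatment of doublets or free RNA, no way of assigning cell types and no name of the test by which genes were listed. The deposited signal values are mean UMIs per cell, worked out from the values: each column times its cell number gave whole UMIs within 0.001. They are not scaled for depth. The authors' p, q and fold columns were not used. Knockout columns carry a number that was not matched to a particular sample, and are called first and second.

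Ratios used the unweighted mean of the knockout columns, with no pseudocount, and a floor of 3 UMIs where the control had none. Counts used a fold of 1.5 because there was 1 control. limma 3.58.1 (R 4.3.3) was run on log2(mean + 0.346), the pseudocount being the 10th percentile of the nonzero means; its spread followed the trend over genes. It was tested on simulated data and was added after seeing the data. The planned edgeR count test was not run: the deposited values are means, and these tables have too few low values for the recovery of reads to be checked. Nothing in the labels describes the mice beyond genotype, strain, tissue and age. Other work used Python 3.11.15 with pandas 2.3.3 and scipy 1.17.1, and coordinates of 230 genes from GENCODE M21.

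The members and 40 gene lists were chosen with earlier results of these data known. Lists of at least 3 listed members are given by their median. Genes named were the 10 highest and 10 lowest ratios among genes whose higher group reached the table's median, leaving out predicted genes, the 10 most abundant in the control, all members of the delta, acute-phase, epithelial, carrier and hormone lists, 2 from each end of other lists, and the 5 widest splits between the knockout mice. Not every such gene is printed. Others were chosen after their values were seen: the extra members given for the immediate early, IRE1-XBP1 and glycolysis lists, and those marked in the text. Alternatives were 3 scalings, a filter at 0.1 UMI per cell, a pseudocount, folds of 2 and of 1.5 in each mouse, a mean weighted by cells, and leaving out either knockout mouse.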

Additional observations from a re-analysis of the deposited data

Results flagged for a closer look

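In 2 genes both knockout mice were above the control in delta cells and below it in alpha cells; the difference was not tested, and both comparisons use the same mice. Ctsz, a lysosomal cathepsin, had 1.42, 2.34 and 1.73 UMIs per cell in control, first and second knockout delta cells, a ratio of 1.44, and 8.27, 6.01 and 4.76 in alpha cells, a ratio of 0.650. Hist1h4i, a histone H4 gene with near-identical copies, had 0.267, 0.746 and 0.513 in delta cells, a ratio of 2.36, and 0.338, 0.336 and 0.305 in alpha cells, a ratio of 0.948. In alpha cells the first knockout value of Hist1h4i was nearly level with the control.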

How the results depend on the processing

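Per cell, 95 genes were higher, 37 lower, and the median log2 ratio was 0.42. Scaling to the listed total gave 146 higher, 17 lower and a median of 0.78; without hormone genes the median was 0.29. Centring on the median gene gave 51 higher, a median of 0.041, and 96 and 97 genes with both mice above and below. A pseudocount gave 60 higher and a median of 0.31. A fold of 2 gave 46 and 15, a fold of 1.5 in each mouse 62 higher, and limma 29 and 24. Leaving out the first or the second knockout mouse gave 81 or 89 higher, 43 or 29 lower, and medians of 0.34 or 0.42. Of 81 named genes, 61 kept their direction under every setting run; of the 56 past 1.5-fold, 4 did not, with log2 ratios without the first or the second mouse of -2.43 or 1.87 (Mmp7), -1.80 or 2.08 (Acaa2), -1.43 or 1.91 (Gm13373) and 2.14 or -0.45 (Hyal1). The medians of the cytosolic ribosome, duct-cell and nuclear oxidative phosphorylation lists changed sign under at least 1 setting, and those of the other 11 lists of at least 3 members did not. The causes were not tested. The edgeR alternatives were not run. No paired analysis was possible because there was 1 control mouse and the labels give no shared replicate numbers. The single control and the 78 to 138 cells per mouse limit the precision of every gene.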

Other observations

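Of the 231 delta-cell genes, 207 were also listed for beta cells, 68 for alpha cells and 64 for both, and 20 for delta cells alone. The 20 include Hamp, Lcn2, Ednrb, Edem2, Tubb4b and C1qa. Of the 114 genes in none of the lists, 65 were at least 1.5-fold higher and 6 at least 1.5-fold lower, with a median ratio of 1.66. Over all 231 genes, 41.1% were at least 1.5-fold higher and 16.0% lower, with a median ratio of 1.34. The choice of lists shapes this contrast. They take in the 37 cytosolic ribosomal and 5 nuclear oxidative phosphorylation genes, all within 1.5-fold of the control.

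Neighbouring genes on chromosome 18 split the knockout mice in the same order. Acaa2 (74779197 to 74806208), Rpl17 (74998558 to 75003381) and BC031181 (75005868 to 75010152) are 3 of the 8 listed genes on that chromosome and lie within 231 kb. Rpl17 had 39.0 UMIs per control cell, 53.9 in the first and 25.3 in the second knockout column, and BC031181 had 3.60, 4.31 and 1.68. Acaa2 had 0.0891, 0.377 and 0.0256. In alpha cells of the same mice Rpl17 had 44.0, 58.5 and 33.3, and BC031181 2.23, 2.38 and 1.25. This group of neighbours was picked out after the values were seen.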
